A study of Mus musculus with 36 samples.

Results

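The 94 protein-coding genes of the mouse whose symbols begin with Kcn encode the pore-forming and accessory subunits of potassium channels, and their surroundings were searched for binding of PAX6, a paired-box transcription factor. They were taken by symbol from the 22208 protein-coding genes on chromosomes 1 to 19 and X in the GENCODE M1 annotation of genome build mm9, and the rule uses the symbol alone. Kcnq1, the gene the set was built around, was known from earlier results of these data to hold peaks. A peak was assigned to a gene when its centre lay in the gene body or within 100 kb of it, and the merged surroundings of the 94 genes made up 84 stretches that cover 27.1 Mb, or 1.06% of the sequenced bases of these chromosomes.

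Chromatin came from enteric precursor cells (EPCs) of CD1 mice at postnatal day 7. The cells were taken from the ganglionic gut, the part of the bowel that holds enteric neurons, and grown as neurosphere-like bodies (NLBs), clumps of cells that float in the medium. PAX6 was immunoprecipitated in 4 libraries of pool 1, 6 of pool 2 and 6 of pool 3, each pool with as many input libraries, and mouse IgG served as negative control in 4 libraries that all carried the label of pool 1. All groups share the strain, age, tissue and culture, and the labels name no allele and no treatment. The merged libraries of each pool gave 1 list of peaks and those of IgG gave another, so the 3 pools were the only replicates and the IgG list had none. The labels do not say whether the pools came from separate animals. NLBs hold a mixture of cells, and peak positions carry no expression, so the label of the cells could not be checked against marker genes.

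The lists held 491 peaks for pool 1, 1032 for pool 2, 724 for pool 3 and 1007 for IgG, of which 489, 1018, 712 and 1006 lay on the chromosomes used. Each peak has a score, the p-value of the peak caller on a logarithmic scale. Scores started at about 50 in every list, and since they depend on depth, which is unknown here, each peak was ranked only within its own list, with rank 1 as the highest score.

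Potassium channels let potassium leave the cell along its gradient, which pulls the membrane towards its resting potential and ends action potentials. Voltage-gated channels (the Kcna to Kcnd, Kcnh and Kcnq genes) open on depolarisation, and calcium-activated channels (Kcnma and Kcnn) open as calcium rises. Inward rectifiers (Kcnj) pass current best near rest, and two-pore channels (Kcnk) carry the leak current. The Kcnf, Kcng, Kcns and Kcnv genes were counted with the voltage-gated subunits. The Kcnt and Kcnu genes were counted with Kcnma and Kcnn as calcium- or sodium-activated channels. Accessory subunits (Kcnab, Kcne, Kcnip and Kcnmb) attach to the pore and change its traffic and gating. In the gut, channels of these families set the excitability of enteric neurons, smooth muscle and pacemaker cells, and in glia inward rectifiers take up potassium.

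Alternating CA or TG was a recurrent feature of the sequence under the peaks. An unbroken run of 20 bp or more was found in 1 of 7 peaks near Kcn genes in pool 1, 8 of 13 in pool 2, 10 of 13 in pool 3 and 9 of 22 in IgG. All other peaks of the same lists held one in 49.4%, 56.1%, 56.2% and 62.5%, so the repeat was not particular to Kcn genes. The stretches below were read from mm9 on the plus strand, with capitals for any run of CA or TG that continues unbroken for 20 bp or more. The first is the region of Kcnq1 that was found in 2 pools. Those of Kcnj10, Kcne1 and Kcnh1 in pool 3 and Kcnk2 in pool 2 lie at the centres of peaks among the best ranked.
Kcnq1, 300 bases of the shared region, chr7:150371057-150371356: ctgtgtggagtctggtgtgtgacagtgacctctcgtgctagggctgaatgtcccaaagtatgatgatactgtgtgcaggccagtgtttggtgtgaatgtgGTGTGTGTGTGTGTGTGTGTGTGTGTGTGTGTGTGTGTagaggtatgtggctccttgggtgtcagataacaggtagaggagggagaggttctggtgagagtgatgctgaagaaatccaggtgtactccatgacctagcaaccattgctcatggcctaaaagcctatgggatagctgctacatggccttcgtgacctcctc
Kcnj10, pool 3, chr1:174323025-174323184: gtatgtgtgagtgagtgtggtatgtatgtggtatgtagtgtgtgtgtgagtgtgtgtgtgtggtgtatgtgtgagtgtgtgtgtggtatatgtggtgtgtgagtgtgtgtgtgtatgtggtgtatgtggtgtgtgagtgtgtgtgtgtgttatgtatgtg
Kcne1, pool 3, chr16:92337930-92338089: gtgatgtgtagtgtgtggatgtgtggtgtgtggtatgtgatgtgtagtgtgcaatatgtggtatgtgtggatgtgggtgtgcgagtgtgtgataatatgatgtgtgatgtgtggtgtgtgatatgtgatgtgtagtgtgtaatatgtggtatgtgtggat
Kcnh1, pool 3, chr1:194315040-194315199: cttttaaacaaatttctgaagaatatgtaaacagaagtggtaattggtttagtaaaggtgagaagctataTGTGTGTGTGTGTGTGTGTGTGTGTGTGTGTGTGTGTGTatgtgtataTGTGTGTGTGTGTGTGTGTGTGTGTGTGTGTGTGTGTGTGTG
Kcnk2, pool 2, chr1:191150617-191150776: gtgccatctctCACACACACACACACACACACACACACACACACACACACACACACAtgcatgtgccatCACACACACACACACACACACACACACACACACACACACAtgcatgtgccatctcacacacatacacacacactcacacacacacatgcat
The stretch of Kcnq1 holds a single TG repeat of 38 bp inside otherwise mixed sequence. That of Kcnk2 is built largely of CA repeats, and that of Kcnh1 opens with mixed sequence and continues with TG repeats. The longest runs in the bases shown are 46 bp for Kcnk2 and 42 bp for Kcnh1. In the whole peaks they are 47 bp and 45 bp. The stretches of Kcnj10 and Kcne1 are also rich in TG but broken every few bases, so the 160 bases shown hold no capitals. The peak of Kcnj10 has an unbroken repeat of 28 bp elsewhere.

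Kcnq1 encodes the pore of the slow delayed rectifier that forms with Kcne1 in the heart and of the channel that forms with Kcne2 in gastric acid secretion. It lies on the plus strand at chr7:150293159-150612955. In pool 2 a peak at chr7:150371027-150371370 had a score of 68.98 and rank 458 of 1032. In pool 3 a peak at chr7:150371044-150371565 had a score of 78.85 and rank 479 of 724. Both lay in an intron, 36.5 kb and 36.6 kb from the closest annotated start of a Kcnq1 transcript and 78.0 kb and 78.1 kb from the 5′ end of the gene, and they shared 327 bp. Neither pool 1 nor IgG had a peak within 100 kb of the gene. A second peak of pool 2 at chr7:150590621-150591170, with a score of 60.99 and rank 849, lay farther along the gene, also in an intron, 256 kb from the closest Kcnq1 start, and the closest start of any protein-coding gene was that of Cdkn1c, an inhibitor of the cell cycle, at 56.1 kb. No IgG peak overlapped any of the 3. For the region of both pools this followed from its selection, since the study left out IgG-overlapping peaks before it chose its targets. By its length and the size of the lists, Kcnq1 would receive 0.363 PAX6 peaks if peaks fell uniformly on their chromosome. As the gene was known beforehand to hold peaks, this comparison is not a test.

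Kcnq1 was the only one of the 94 genes at which peaks of different pools overlapped. PAX6 peaks from at least 2 pools were found at 5 Kcn genes (5.32%), against 2.17 expected from length, and 1.58% of all protein-coding genes had them. Kcnq1 is among the 5, and the study had already reported it with peaks of 2 pools, so its place there was fixed beforehand. The other four were Kcnd2, Kcne2, Kcnip3 and Kcnk9. At each of these the peaks of different pools lay apart.

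**Figure D1:**
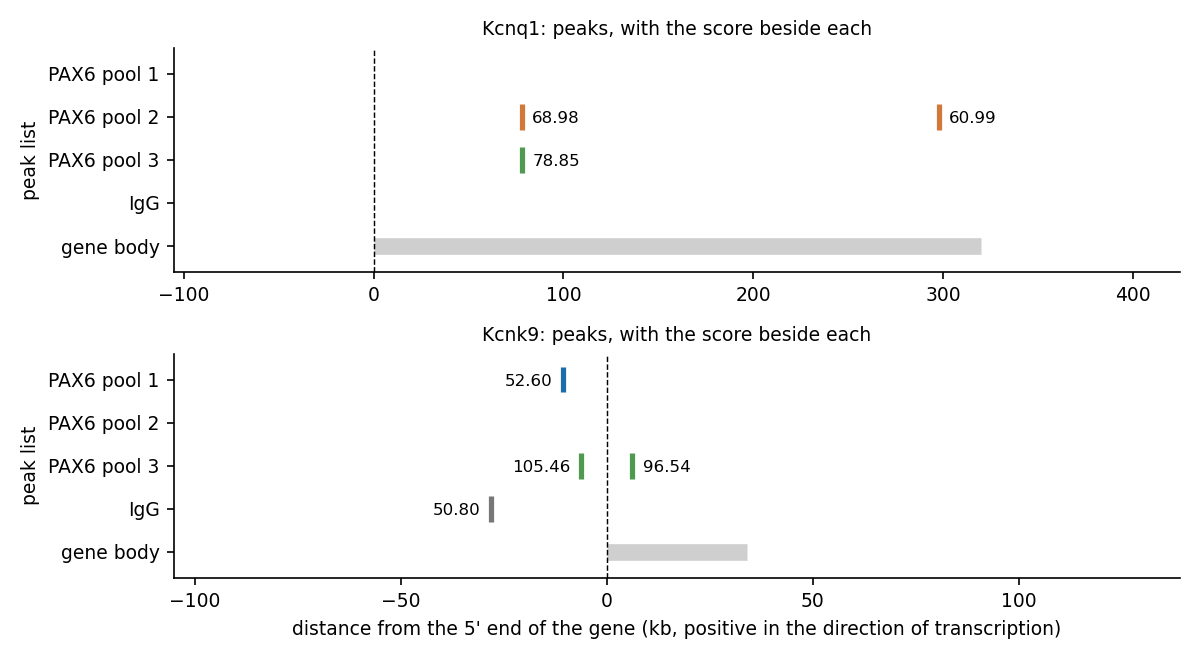
Peaks at Kcnq1 (top) and Kcnk9 (bottom) by distance from the 5′ end of the gene in kb, one row for each list, with the score beside each peak and the gene body in grey. At Kcnq1 the peaks of pool 2 and pool 3 fall at the same place 78 kb into the gene, whereas at Kcnk9 the nearest peaks of pools 1 and 3 stand 4483 bp apart and the IgG peak lies farther upstream.

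Kcnk9 encodes an acid-sensitive leak channel of the two-pore family and lies at chr15:72342549-72376709 on the minus strand. Pool 3 had 2 peaks there. One at chr15:72370096-72370983, with a score of 96.54 and rank 384, lay in an intron 6.17 kb from the start. The other at chr15:72382591-72383189, with a score of 105.46 and rank 363, lay 6.18 kb upstream. Pool 1 had a peak at chr15:72387083-72387663, 10.7 kb upstream, with a score of 52.6 and rank 435 of 491, so its centre stood 4483 bp from that of the nearer peak of pool 3. IgG also had a peak at Kcnk9, 28.2 kb upstream, with a score of 50.8 and rank 966 of 1007.

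The remaining two-pore channels with a PAX6 peak each had 1 peak. Kcnk2, whose leak channel opens with membrane stretch and lipids, had an intronic peak of pool 2 at chr1:191150472-191150922, 16.3 kb from the start, with a score of 111.26 and rank 102. Kcnk13 had an intronic peak of pool 2 at chr12:101247188-101247735, 44.7 kb from the start, with a score of 50.69 and rank 1024, among the lowest of its list. The peaks of Kcnk3 in pool 2 (63.2 kb upstream) and Kcnk5 in pool 1 (131 kb past the start and beyond the 3′ end) were outside the genes, which both encode acid-sensitive leak channels. In all, 5 of the 14 two-pore genes had a PAX6 peak against 2.65 expected, and 2 had an IgG peak against 1.29 expected. Among all protein-coding genes 17.6% had a PAX6 peak and 8.67% an IgG peak, and the differences were not tested.

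Among the 40 voltage-gated subunits, 10 had a PAX6 peak against 9.27 expected, and 8 had an IgG peak against 4.50. The shares of all protein-coding genes were 17.6% and 8.67%, and these differences were not tested either. Kcnd2, which carries the fast transient current of neurons, had 2 intronic peaks of pool 1, at chr6:21243343-21243939 with a score of 56.2 and rank 381, and at chr6:21483517-21483891 with a score of 67.66 and rank 122. They lay 78.1 kb and 318 kb from the start. Pool 3 had a peak 6.47 kb upstream of Kcnd2 at chr6:21158903-21159155, with a score of 89.85 and rank 428, but 216 bp of it overlapped an IgG peak of score 53.45. Its relative Kcnd3 had an intronic peak of pool 2, 15.6 kb from the closest start, with a score of 68.79 and rank 563.

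The Kcnh genes encode channels of the ether-a-go-go type. Kcnh1 had an intronic peak of pool 3 at chr1:194314974-194315266, 56.5 kb from the closest start, with a score of 180.6 and rank 62, and an IgG peak of score 59.24 in an intron 76149 bp away. Kcnh7 had an intronic peak of pool 2 at chr2:62623542-62623952, 398 kb from its start, with a score of 68.3 and rank 609. Kcnq5, a relative of Kcnq1 that contributes to the M-current of neurons, had a peak of pool 2 at chr1:21841891-21842264, with a score of 68.98 and rank 458. It lay in an intron 3.91 kb from a transcript start. Kcnc2, a channel of fast-spiking neurons, had an intronic peak of pool 2 at chr10:111845575-111846016, 138 kb from the start, with a score of 66.46 and rank 683. All of these genes except Kcnh1 lacked an IgG peak.

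The last 3 voltage-gated genes had their PAX6 peak outside the gene. It lay 42.2 kb upstream of Kcna6 (pool 3) and 96.0 kb past the start of Kcna10 (pool 2), both Shaker-type subunits, and 49.3 kb upstream of the modifier subunit Kcng2 (pool 3). The peak assigned to Kcna10 was centred 237 bp from the start of a different gene, Hbxip, so it was the PAX6 peak of the whole set nearest to any protein-coding start. IgG peaks lay around Kcna10 and Kcng2 too, and at Kcng2 one of them was 3307 bp from the PAX6 peak.

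Accessory subunits made up 16 genes, of which 8 had a PAX6 peak against 3.83 expected. IgG gave 7 against 1.91 expected, so the accessory genes exceeded the expected number in both. Of all protein-coding genes, 17.6% had a PAX6 peak and 8.67% an IgG peak. Kcne1 and Kcne2 shared a peak in both, as did Kcnip1 and Kcnmb1, which raises the gene counts. Counted as peaks, the family had 10 of PAX6 against 4.50 expected and 5 of IgG against 2.07. The highest ranked of their PAX6 peaks lay between genes on chromosome 16, at chr16:92337860-92338161 in pool 3, with a score of 182.48 and rank 61. It was assigned to both Kcne1 and Kcne2, whose single-pass proteins join Kcnq1 and other pores, 21.1 kb and 42.1 kb from their closest starts, and the protein-coding start nearest to it belonged to 4930563D23Rik. Kcne2 also had a peak of pool 1 at chr16:92203446-92203813, 89.0 kb upstream, with a score of 67.66 and rank 122. An IgG peak of score 64.33 lay within 100 kb of both genes, 50849 bp from the peak of pool 3.

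Kcnip3 encodes a calcium-binding protein that modulates Kcnd channels and is also known as a transcriptional repressor. Pool 2 had 2 intronic peaks in it, at chr2:127329366-127329729 with a score of 71.68 and rank 417, and at chr2:127339535-127340017 with a score of 64.24 and rank 744, which lay 17.6 kb and 7.33 kb from the closest Kcnip3 start, with that of Gm17601 nearer to both. Pool 3 had a peak at chr2:127446492-127446759, 98.8 kb upstream, with a score of 180.6 and rank 62, close to the 100 kb limit and nearer to the start of Mrps5. Kcnip1, another modulator of Kcnd channels, had an intronic peak of pool 3 at chr11:33763253-33763602, with a score of 138.11 and rank 158, which lay 99.6 kb upstream of Kcnmb1 as well. All 350 bp of it were covered by an IgG peak of score 50.8. A further peak of pool 3 lay beyond the end of Kcnip1 at chr11:33503904-33504485, with a score of 55.68 and rank 671.

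Kcnab2, a beta subunit of Shaker-type channels, had an intronic peak of pool 1, 4.79 kb from a transcript start, with a score of 78.53 and rank 65. Its position was shared with IgG, whose peak there had a score of 117.09 and rank 10 of 1007, and 439 bp overlapped. Of the other accessory genes, Kcnab1 had a peak of pool 2 at 68.8 kb and Kcnmb4, a neuronal beta subunit of the large-conductance calcium-activated channel, had one of pool 3 at 56.6 kb from the closest start, both downstream of the gene. Kcnip4, the longest Kcn gene at 1135 kb, had no peak in any list. Under uniform placement 1.23 PAX6 peaks were expected there, with a probability of 0.709 of at least 1.

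Of 15 inward rectifiers, 2 had a PAX6 peak against 2.91 expected, and 2 had an IgG peak against 1.32 expected. For this family and the next, the shares of all protein-coding genes were 17.6% for PAX6 and 8.67% for IgG. Both PAX6 genes were reached by a single peak. It was the best ranked PAX6 peak near any Kcn gene, at chr1:174322882-174323329 in pool 3 with a score of 263.45 and rank 10 of 724. This peak lay downstream of Kcnj10, the main inward rectifier of glia, and upstream of Kcnj9, a G protein-gated channel, to the same side of both genes. It was 51.6 kb and 63.7 kb from their starts, with the start of Pigm closer to it than either at 16.4 kb. Of 8 calcium- or sodium-activated channels, only Kcnn2, which encodes a small-conductance channel, had a PAX6 peak (pool 1), downstream of the gene and 192 kb from the closest start, against 2.26 genes expected. IgG had a peak at 1 gene of this family against 1.19 expected, and none of these differences between observed and expected was tested. Kcnrg, which regulates channel assembly and is the one gene outside these families, had none.

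**Figure D2:**
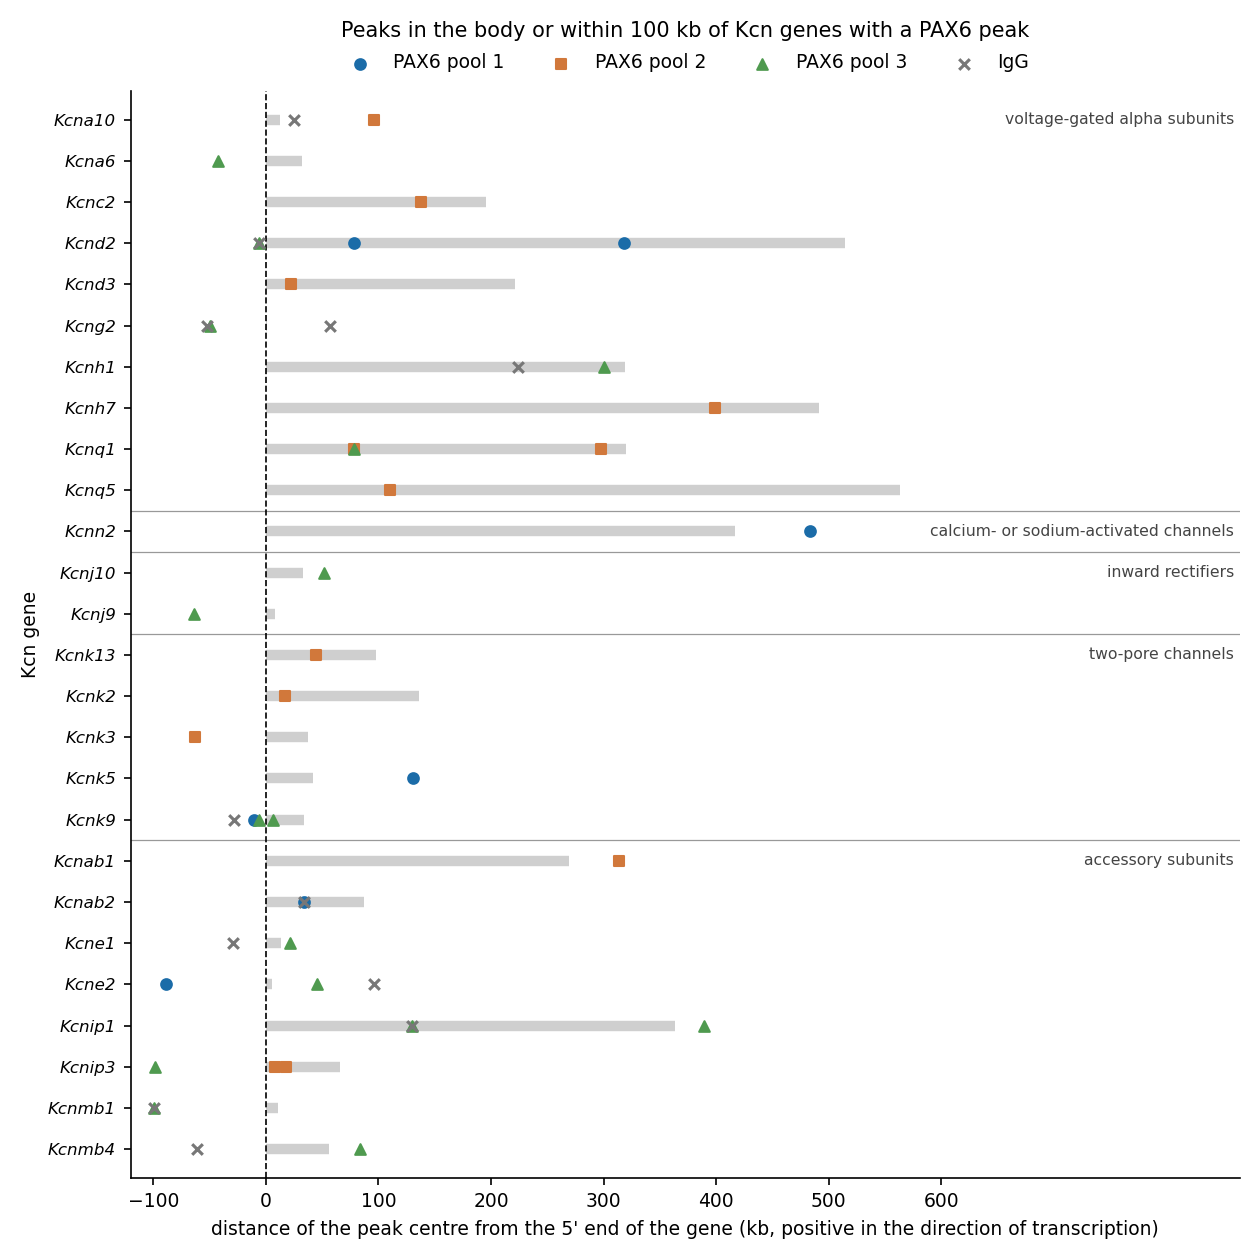
Distance of every peak centre from the 5′ end of its Kcn gene in kb, for the 26 genes with a PAX6 peak, grouped by family. Grey bars are gene bodies and symbols mark the list. Overlapping symbols of 2 pools occur at Kcnq1 and overlapping PAX6 and IgG symbols at Kcnab2, Kcnd2, Kcnip1 and Kcnmb1, while at Kcng2 and Kcnk9 peaks lie close together without overlapping.

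Counted together, 33 PAX6 peaks formed 36 pairs with Kcn genes, since 3 peaks were within reach of 2 genes each. None of the pairs placed the centre of the peak in an exon. An intron held it in 17, while it lay upstream of the gene in 10 and downstream in 9. A Kcn gene had the nearest protein-coding start for 21 of the 33 peaks, and 6 peaks lay within 10 kb of a Kcn start. For the other 12 a different gene was nearer, so that an assignment within 100 kb does not single out the channel gene.

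The question was then whether peaks were more frequent around Kcn genes than their length alone gives. Kcn genes are longer than most, with a median of 28.1 kb against 15.5 kb for all protein-coding genes, and those with a PAX6 peak had a median of 76.4 kb against 19.6 kb for those without. The expected counts therefore place each peak uniformly on the sequenced bases of its own chromosome. Pool 1 had 7 peaks against 5.19 expected, a ratio of 1.35 (exact Poisson 95% interval 0.542 to 2.78). Pool 2 had 13 against 10.9, a ratio of 1.19 (0.635 to 2.04), and pool 3 had 13 against 7.44, a ratio of 1.75 (0.930 to 2.99). The 3 ratios averaged 1.43 ± 0.286 (SD, n = 3 pools), and the summed lists gave 33 peaks against 23.5, a ratio of 1.40 (0.965 to 1.97). Each of these intervals includes 1, and they cover counting error only. The 33 peaks include the 3 of Kcnq1, the gene the set was built around.

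IgG had 22 peaks in the same territory against 10.6 expected, a ratio of 2.07 (1.30 to 3.13). The control list thus had a higher ratio than any of the 3 PAX6 pools. As a share of each list, Kcn territory held 1.49% of the summed PAX6 peaks and 2.19% of IgG peaks, a difference of -0.700 percentage points (PAX6 minus IgG, Newcombe 95% interval -1.88 to 0.248). A difference was not detectable at this number of peaks, and its sign turned with the setting, to 0.0703 points in gene bodies alone and 0.719 points at a score of 70 or more. That score kept 1043 of 2219 PAX6 peaks but 298 of 1006 IgG peaks, so it compares unlike parts of the lists. With 3 lists against 1, an exact permutation test cannot give a one-sided p under 0.25, and none was run.

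The number of genes with a peak showed the same order. PAX6 peaks of pool 1 were found at 6 Kcn genes (6.38%, against 4.25% of all protein-coding genes and 5.25 genes expected from length), and those of pool 2 at 11 genes (11.7%, against 8.11% and 10.6 genes). Pool 3 had peaks at 14 genes (14.9%, against 6.85% and 7.45 genes). At least 1 pool had a peak at 26 genes, or 27.7%, whereas 17.6% of all protein-coding genes had one and 21.1 Kcn genes were expected from length. IgG peaks were found at 20 genes, or 21.3%, against 8.67% of all protein-coding genes and 10.3 Kcn genes expected. Pools 1 and 2 were thus within 1 gene of their expected number, and pool 3 and IgG exceeded theirs, which was not tested because neighbouring genes share peaks.

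Of the 26 genes with a PAX6 peak, 11 also had an IgG peak, which is 42.3% of them and 55% of the IgG genes. Over all protein-coding genes, 558 of the 3900 with a PAX6 peak also had an IgG peak, which is 14.3% of them and 29.0% of the IgG genes, without allowance for gene length. The Kcn genes in question were Kcna10, Kcnab2, Kcnd2, Kcne1, Kcne2, Kcng2, Kcnh1, Kcnip1, Kcnk9, Kcnmb1 and Kcnmb4. Only IgG peaks were found at 9 genes. They include Kcnh3, Kcnip2, Kcnj6, Kcnj12, Kcnk15, Kcns2 and the genes for the pores of the large-conductance calcium-activated channel (Kcnma1) and of the M-current (Kcnq3). The IgG peak nearest to a Kcn start was 1.37 kb upstream of Kcns2, with a score of 66.04. Sharing a gene did not mean sharing a position. An IgG peak overlapped 3 of the 33 PAX6 peaks near Kcn genes (9.09%, Wilson 95% interval 3.14 to 23.6) and 79 of the 2186 other PAX6 peaks (3.61%, 2.91 to 4.48). The remaining 59 Kcn genes had no peak in any list, and they comprised 26 voltage-gated, 6 calcium- or sodium-activated, 11 inward rectifier, 8 two-pore and 7 accessory genes together with Kcnrg.

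**Figure D3:**
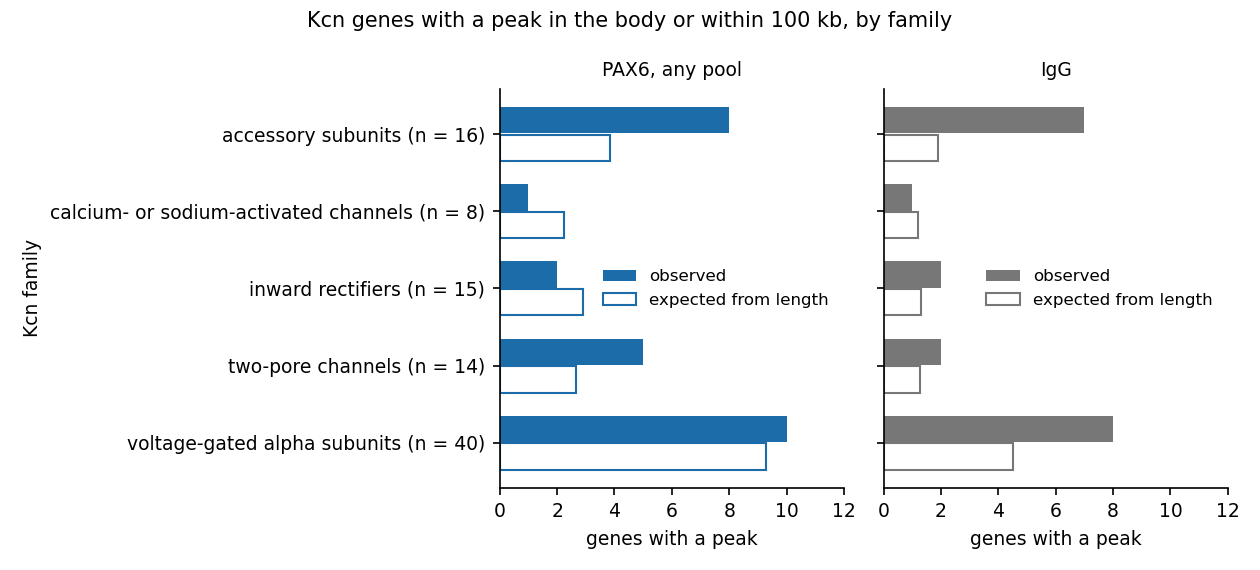
Number of genes with a peak in the gene body or within 100 kb in each Kcn family (filled bars) beside the number expected from gene length under uniform placement (open bars), for PAX6 in any pool (left) and IgG (right). Accessory subunits exceed the open bar in both panels, by 8 against 3.83 and by 7 against 1.91, and voltage-gated genes stand near it for PAX6 with 10 against 9.27. Genes that share a peak are each counted. Over all protein-coding genes 17.6% had a PAX6 peak and 8.67% an IgG peak.

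Gene bodies and flanks were also counted apart, a split made after the data were seen. Inside Kcn gene bodies the summed PAX6 lists had 17 peaks against 8.69 expected, a ratio of 1.96 (1.14 to 3.13), and in the 100 kb flanks 16 against 14.8, a ratio of 1.08 (0.616 to 1.75). Of the 17, 3 lay in Kcnq1 (2 of pool 2 and 1 of pool 3), which was known beforehand to hold peaks. Under uniform placement 0.363 PAX6 peaks were expected in Kcnq1 with 100 kb on each side, so its 3 peaks raise the ratio of 1.96. No ratio without this gene was computed. Pool 1 had ratios of 1.60 (0.329 to 4.67) in gene bodies and 1.21 (0.329 to 3.09) in flanks. Pool 2 had 2.46 (1.18 to 4.53) and 0.439 (0.0904 to 1.28), and pool 3 had 1.45 (0.396 to 3.72) and 1.92 (0.877 to 3.64). Pool 2 contributed 10 of the 17 peaks in gene bodies, and without it the ratios were 1.51 (0.608 to 3.12) in gene bodies and 1.62 (0.865 to 2.78) in flanks, so the higher ratio in gene bodies rested on pool 2. IgG had 7 peaks in gene bodies against 4.02, a ratio of 1.74 (0.700 to 3.59), and 15 in flanks against 6.60, a ratio of 2.27 (1.27 to 3.75). Over all protein-coding genes the summed PAX6 lists gave 0.915 in gene bodies and 1.14 in flanks, and IgG gave 0.955 and 1.11.

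**Figure D4:**
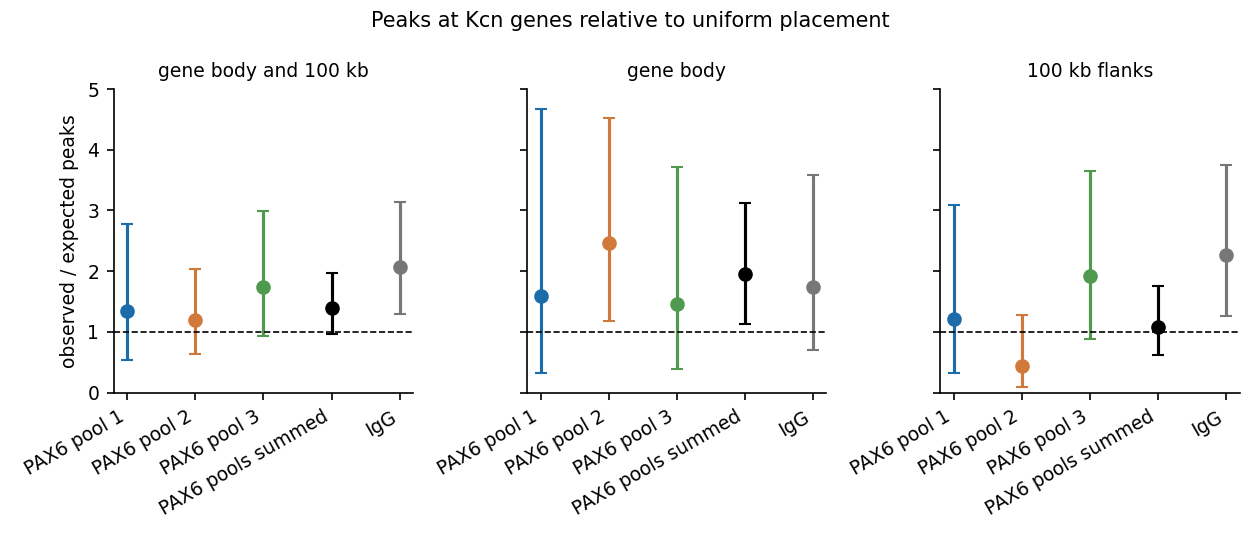
Observed over expected number of peaks at Kcn genes for each list, in gene bodies with 100 kb (left), in gene bodies (middle) and in the flanks (right). Points are ratios, bars are exact Poisson 95% intervals of counting error, and the dashed line at 1 is uniform placement. PAX6 pools lie between 1.19 and 1.75 on the left with intervals that include 1, below IgG at 2.07.

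Genes of other voltage-gated channels and channel partners were counted in the same way. Near the 26 calcium channel genes (Cacn) there were 7 PAX6 peaks against 7.83 expected, a ratio of 0.894 (0.359 to 1.84), and 3 IgG peaks against 3.41. All 7 of these PAX6 peaks lay in gene bodies, where 4.17 were expected, a ratio of 1.68 (0.675 to 3.46). Near the 14 sodium channel genes (Scn) there were 2 PAX6 peaks against 2.66, and no IgG peak against 1.17. The intervals of Kcn, Cacn and Scn overlap, and a difference between the channel classes was not tested.

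A list of 20 partners that regulate, anchor or modify potassium channels had 8 PAX6 peaks against 9.55 expected, a ratio of 0.838 (0.362 to 1.65), and 7 IgG peaks against 4.34. PAX6 peaks were found at 6 of these genes (30%, against 17.6% of all protein-coding genes and 6.50 genes expected from length), which were Abcc9 (the sulfonylurea receptor subunit of vascular channels), Ank3 (the scaffold ankyrin G), Cntnap2 (which clusters channels along axons), Dpp10 (which modifies Kcnd channels) and the pacemaker channel genes Hcn3 and Hcn4. Dpp10 had a peak of pool 1, one of pool 3 and one of IgG. Cntnap2 had 2 peaks, both of pool 1, and the others 1 each.

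The scores of the peaks near Kcn genes reached 78.53 in pool 1, 111.26 in pool 2 and 263.45 in pool 3, below the highest of each list at 112.52, 509.09 and 1451.67. Their median was 59.96 in pool 1, 68.98 in pool 2 and 105.46 in pool 3, and that of all other peaks was 62.08, 68.98 and 105.43. In IgG the median score was 59.975 near Kcn genes and 65.66 elsewhere. The median rank of these IgG peaks was at 67.4% of the list near Kcn genes and 49.7% elsewhere, a difference that was not tested. The top 10% of a list by score held 5 of the 33 PAX6 peaks (15.2%, Wilson 95% interval 6.65 to 30.9) and 226 of the 2186 others (10.3%, 9.13 to 11.7). Of the 5 peaks, 4 were of pool 3 and 1 of pool 2. They were those of Kcnj10 and Kcnj9, Kcne1 and Kcne2, Kcnh1, Kcnip3 and Kcnk2. IgG had 1 such peak among 22, that of Kcnab2.

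**Figure D5:**
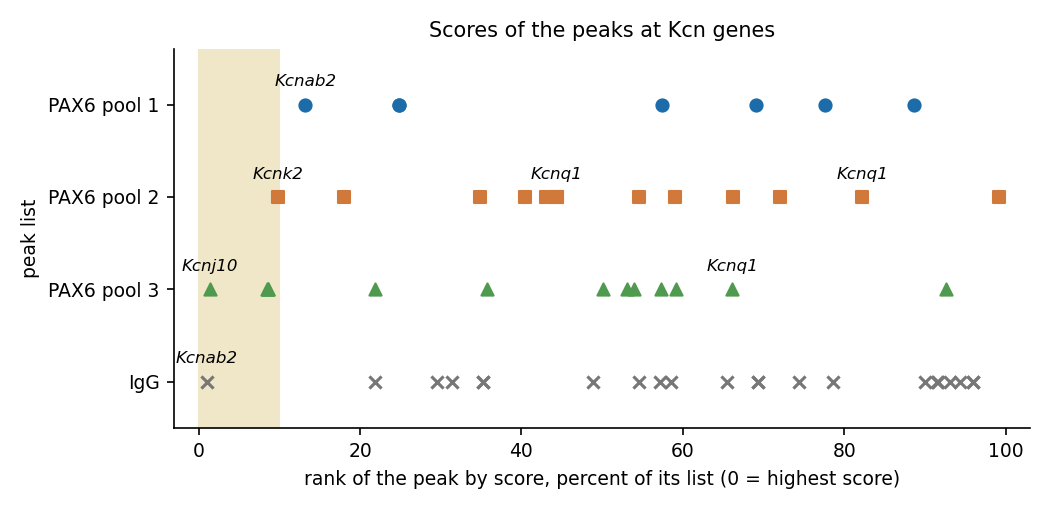
Rank of each peak near a Kcn gene as a percent of its list, where 0 is the highest score, with the top 10% shaded and some genes named. Peaks of pools 1, 2 and 3 and IgG are spread along the axis, with 4 of 13 peaks of pool 3 in the shaded part and the peaks of Kcnq1 in the middle or lower part of their lists.

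The bases under the peaks were compared for sequence that the choice of genes did not use. An unbroken run of CA or TG over 20 bp or more occurred in 19 of the 33 PAX6 peaks near Kcn genes (57.6%, 40.8 to 72.8) and in 54.7% of the other PAX6 peaks (52.6 to 56.7). The difference was 2.91 points (Newcombe 95% interval -14.0 to 18.2). In IgG peaks the shares were 40.9% near Kcn genes (23.3 to 61.3) and 62.5% elsewhere (59.4 to 65.5), a difference of -21.6 points (-39.5 to -1.005). Motifs that the study found in its binding regions were searched next. The region of Kcnq1 was among those searched but is not named among those that supplied sites. The first motif, of 30 positions, was found with up to 6 mismatches in 75.8% of the Kcn peaks of PAX6 (59.0 to 87.2) and 74.2% of the others (72.3 to 75.9). In IgG it was found in 81.8% of the Kcn peaks and 88.0% of the others. The second motif, of 14 positions, was found with up to 2 mismatches in 81.8% of the Kcn peaks of PAX6 and 75.7% of the others.

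At Kcnq1 the first motif matched with 0 mismatches at chr7:150371164-150371193 on the minus strand, inside the TG repeat shown above. Such a match was not particular to Kcnq1 or to PAX6. Other PAX6 peaks, among them those of Kcnh1 and Kcnk2, and IgG peaks, among them those of Kcnma1 and Kcns2, also matched with 0 mismatches. The motif is itself a CA repeat in large part. The core of the paired-domain site of PAX6, TTCACGC on either strand, was in none of the 33 peaks and in 0.503% of the other PAX6 peaks, and in none of the 22 IgG peaks near Kcn genes and 0.813% of the other IgG peaks. For both motifs the interval of the difference between peaks near Kcn genes and other peaks included 0 in every list. For the repeat it did so in each PAX6 list but not in IgG, and these intervals are not adjusted for the number computed.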

How the data were processed

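PAX6 ChIP-seq of EPCs was analysed from the deposited peak lists. The authors merged the libraries of each pool, used Bowtie for the alignment to mm9 and MACS for peak calling. Their versions are not given in the sources used here. Deposited by the authors beside each peak is a score, the log-transformed p-value of MACS. Reads and input libraries have no values per library here, so depth is unknown. Positions are given as 1-based intervals, and 29 peaks on other sequences were left out. The 96 Kcn gene entries joined to 94 symbols. Expected counts are exact sums of the share of non-N bases of a peak's chromosome that the territory covers, tested on simulated data, with no p-value. Every Kcn gene with a PAX6 peak is named, in full if it had peaks of 2 pools, in its body, within 10 kb of a start or in the top 10% by score. Results for some genes and stretches of sequence are not reported here. Members and lists were chosen with earlier results of these data known. The core motif, the split into bodies and flanks, the top 10% share and the intervals of motif and repeat shares were added after the data were seen. Alternatives covered distance, score, IgG overlap, position rule, bases, chromosomes and pools. Tools were samtools 1.23.1, matplotlib 3.10.9, pysam 0.24.0, scipy 1.17.1, numpy 2.4.6 and Python 3.11.15.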

Additional observations from a re-analysis of the deposited data

How the results depend on the processing

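Of 55 alternative values, 34 stayed close to the reported ones, 18 moved and 3 changed sign. The PAX6 ratio was 1.96 for gene bodies alone and 1.94 for 10 kb, and 1.24 to 1.58 with a pool left out. With IgG-overlapping peaks removed it was 1.32, and no alternative left Kcnq1 out. The IgG ratio was 0.942 at a score of 70 or more, where 3 peaks faced 3.18 expected and the PAX6 ratio, from 18 peaks, was 1.64. The genes with a PAX6 peak numbered 13 for gene bodies, 14 for 10 kb and 11 at a score of 100 or more, and 17 to 23 with a pool left out, the lowest without pool 2 and without pool 3. Those with peaks of at least 2 pools numbered 1 for gene bodies, 2 for 10 kb, 3 for 50 kb, 1 at a score of 70 and 0 at 100, and 0 to 3 with a pool left out (2 without pool 1, 3 without pool 2, 0 without pool 3). The difference of shares, PAX6 minus IgG, changed sign to 0.0703 points for gene bodies, 0.00667 for 10 kb and 0.719 at a score of 70, and was -0.175 for 50 kb and -1.23 at 100, where IgG had 1 peak. A fixed score kept unlike parts of the lists, at 70 1043 of 2219 PAX6 peaks and 298 of 1006 IgG peaks. The cause of the changes in sign was not tested. Without 1 pool it was -0.860 to -0.522. No paired analysis was possible because each list merges the libraries of a pool and holds no value per library. The numbers of peaks, 7 to 22 per list, limit every ratio.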
